A study of Mus musculus with 6 samples.

Results

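Esm1 and 9 further genes used as markers of endothelial tip cells and vessel sprouting (Cxcr4, Pdgfb, Igfbp3, Kcne3, Unc5b, Fscn1, Trp53i11, Rgcc and Mest) were followed in mouse retina. They were taken by gene symbol from a table of 28627 genes, leaving aside the genes of vascular endothelial growth factor, angiopoietin and apelin signalling, and all 10 were found. The set was chosen by the known role of the genes and with their measured values in this genotype comparison in view. Poly-A RNA had been sequenced from 6 retina samples of the oxygen-induced retinopathy model at postnatal day 15. Of these, 3 came from Emcn+/+ pups and 3 from Emcn-/- littermates. Endomucin, the product of Emcn, is a mucin-type glycoprotein on the luminal face of endothelial cells. All 6 samples went through the model, so there is no group raised in room air. The labels do not say how the Emcn allele was made, in which cells it is deleted, or whether each sample is 1 animal, so the spread behind each p-value may be technical.

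Tip cells lead each new vessel sprout. They extend filopodia towards growth factors made by oxygen-starved tissue, secrete matrix and signals that recruit mural cells, and are followed by dividing stalk cells. In the oxygen-induced retinopathy model, capillaries lost during a period of high oxygen leave the retina hypoxic after return to room air, and sprouts then form both within the retina and as tufts on its surface.

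Values are normalised reads, which are read counts divided by 1 factor per library and are not adjusted for gene length; at the depth of these libraries (14865868 to 17087621 reads) 1 read was worth 0.924 to 1.09 of them. Emcn was at 80.6 to 100.5 normalised reads in the Emcn+/+ libraries and at 1.04 to 4.62 in the Emcn-/- libraries. Emcn+/+ replicate 3 was the 1 library with female-type reads (17641 of Xist and 0 of Ddx3y). The sample titles are numbers that begin with 14 in 4 libraries (replicates 1 and 2 of each genotype) or with 18 in 2 (replicate 3 of each), and the labels do not say what these series stand for. In Emcn-/- replicate 2 the 18 core endothelial genes fixed as markers, such as Pecam1 and Cdh5, summed to 2590.2 normalised reads, against 3997 to 4999.7 in the other 5.

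Of the 10 tip cell genes, Esm1 was the 1 whose values in the genotypes did not overlap, all 3 Emcn-/- libraries lying above all 3 Emcn+/+ libraries. Among all 16681 genes tested, 7.48% lay above in the same way. With limma on log2(value + 1), 8 of the 10 had a positive difference (Emcn-/- minus Emcn+/+), where 52% of all genes did, and their median was 0.11 against 0.01 over all genes. Both turned on single libraries: without Emcn+/+ replicate 3 all 10 were positive (median 0.33), and without Emcn-/- replicate 2 all 10 were as well (0.18). Without Emcn+/+ replicate 1 or Emcn-/- replicate 3, 5 of the 10 were positive (medians 0.0042 and 0.0060). None of the 10 passed an adjusted p of 0.05 over all genes, a threshold that 1 gene, Emcn, passed (0.00599% of those tested). At an unadjusted p of 0.05, 1 of the 10 was under the threshold, as were 8.14% of all genes; edgeR on the recovered reads also called 0 of the 10, and 0.00599% of all genes. DESeq2 called 0 of the 9 to which it gave an adjusted p (not Kcne3), and 0.568% of the 12511 genes to which it gave one. The 10 genes were brought together with results of this comparison known, so these counts describe them and support nothing further.

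**Figure D1:**
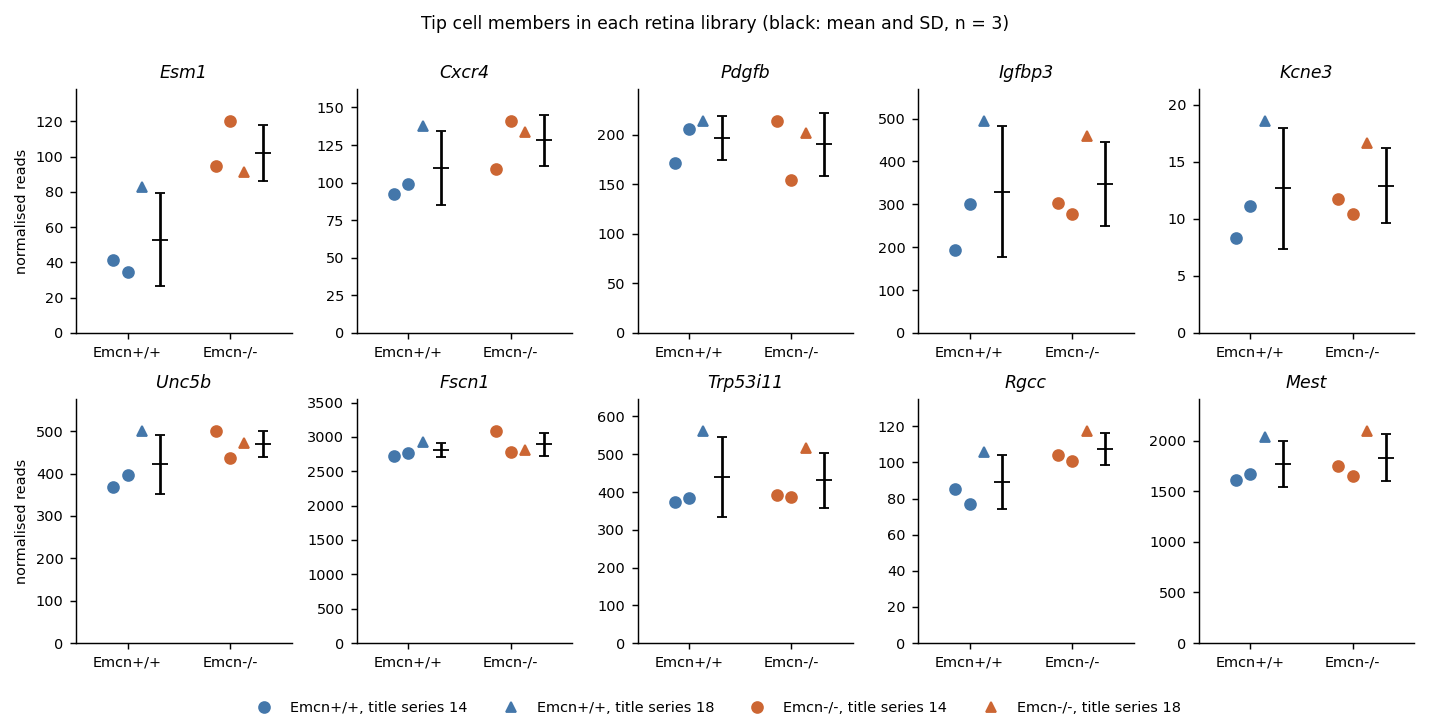
Normalised reads (vertical axes, linear from 0) of the 10 tip cell genes in each library, by genotype (blue Emcn+/+, orange Emcn-/-), with circles for titles beginning with 14 and triangles for titles beginning with 18; black bars give the mean and SD of 3 libraries. Esm1 runs from 34.3 to 83.0 in Emcn+/+ and from 91.5 to 120.3 in Emcn-/-, and for Igfbp3, Kcne3, Trp53i11, Rgcc and Mest both triangles stand above the 4 circles.

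Esm1 encodes endocan, a proteoglycan secreted by endothelial cells and enriched in tip cells, where vascular endothelial growth factor induces it. The gene (ENSMUSG00000042379) lies on the plus strand of chromosome 13 at 113209659 to 113218098 (GRCm38). It had 41.5, 34.3 and 83.0 normalised reads in Emcn+/+ replicates 1, 2 and 3 and 94.4, 120.3 and 91.5 in Emcn-/- replicates 1, 2 and 3. These rest on 40, 37, 76, 97, 116 and 99 reads. Replicates 1 and 2 of Emcn+/+ were low, and Emcn+/+ replicate 3 stood near the lowest Emcn-/- library. The means were 52.9 ± 26.3 and 102 ± 15.9 (SD, n = 3 each), a 1.93-fold ratio, and the log2 difference was 1.03 ± 0.31 (SE; limma adjusted p = 0.482).

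The size of that difference turned on single Emcn+/+ libraries. Without Emcn+/+ replicate 2 the log2 difference of Esm1 was 0.78 ± 0.30 (limma adjusted p = 0.940). Without Emcn+/+ replicate 1 it was 0.91 ± 0.34 (limma adjusted p = 0.686). Without Emcn+/+ replicate 3 it was 1.40 ± 0.21, with a limma adjusted p of 0.0253, in a fit that called 0.855% of all genes. Among the libraries titled 14 alone (2 against 2) it was 1.47 ± 0.24 (limma adjusted p = 0.0609), while between the single pair titled 18 it was 0.14. A limma term for the interaction of genotype and title series gave a difference of -1.34 ± 0.41 between those 2 values (adjusted p = 0.696 over all genes, of which 23 were called). Leaving out any single library other than Emcn+/+ replicate 3, limma called 0 of the 10. Of all genes it called 0.00582% without Emcn-/- replicate 2 and 0.00585% without Emcn-/- replicate 3. It called 0 without Emcn+/+ replicate 1, Emcn+/+ replicate 2 or Emcn-/- replicate 1. Over all alternatives Esm1 stayed positive, between 0.78 and 1.47, with adjusted p between 0.0234 and 0.940.

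The sequence before the start of transcription is shown for 5 of the genes. Esm1, Rgcc and Cxcr4 were lowest in Emcn+/+ replicates 1 and 2. Igfbp3, Trp53i11 and again Rgcc were higher in both libraries titled 18 than in all titled 14. These patterns do not set the 5 apart from the genes not shown. Unc5b and Fscn1 were also lowest in Emcn+/+ replicates 1 and 2, and Kcne3 and Mest were also higher in both libraries titled 18. RefSeq start sites on GRCm38.p6 were matched for 9 of the 10 symbols, Pdgfb being the 1 without an entry. Each run covers 250 bases before the start, or 240 for Rgcc, where bases that GENCODE places in its first exon were left out. Capitals mark the core of the hypoxia response element, ACGTG or GCGTG, on either strand.
Esm1 (chr13:113209409-113209658, plus strand): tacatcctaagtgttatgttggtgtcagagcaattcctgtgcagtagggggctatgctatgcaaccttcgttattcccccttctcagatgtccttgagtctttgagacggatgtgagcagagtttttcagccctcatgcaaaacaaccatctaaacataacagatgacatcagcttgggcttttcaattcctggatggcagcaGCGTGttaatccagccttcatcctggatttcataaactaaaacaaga
Rgcc (chr14:79301646-79301885, minus strand): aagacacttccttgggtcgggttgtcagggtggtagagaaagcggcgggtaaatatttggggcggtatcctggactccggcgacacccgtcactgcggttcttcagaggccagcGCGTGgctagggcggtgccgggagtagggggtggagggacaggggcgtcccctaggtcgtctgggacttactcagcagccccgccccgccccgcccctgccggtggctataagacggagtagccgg
Cxcr4 (chr1:128592300-128592549, minus strand): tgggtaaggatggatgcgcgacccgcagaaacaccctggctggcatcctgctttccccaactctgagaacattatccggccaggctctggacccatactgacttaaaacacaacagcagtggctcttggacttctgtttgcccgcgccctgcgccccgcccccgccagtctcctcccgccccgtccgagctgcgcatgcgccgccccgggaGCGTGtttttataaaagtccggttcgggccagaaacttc
Igfbp3 (chr11:7213924-7214173, minus strand): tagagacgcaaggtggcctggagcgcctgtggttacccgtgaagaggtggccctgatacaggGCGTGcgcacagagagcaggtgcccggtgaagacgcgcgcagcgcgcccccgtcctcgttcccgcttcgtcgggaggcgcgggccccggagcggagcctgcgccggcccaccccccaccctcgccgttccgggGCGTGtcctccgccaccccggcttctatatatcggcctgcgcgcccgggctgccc
Trp53i11 (chr2:93187298-93187547, plus strand): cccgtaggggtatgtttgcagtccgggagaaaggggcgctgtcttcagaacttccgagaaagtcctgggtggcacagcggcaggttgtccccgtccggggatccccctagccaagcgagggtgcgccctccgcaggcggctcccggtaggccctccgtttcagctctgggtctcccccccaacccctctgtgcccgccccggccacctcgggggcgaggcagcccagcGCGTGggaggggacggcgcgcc
Esm1, Rgcc, Cxcr4 and Trp53i11 each held GCGTG or its complement once and Igfbp3 held it 2 times. ACGTG was in none of the windows of the 9 matched genes, and 7 of the 9 held either core, the exceptions being Kcne3 and Mest. Those 7 had 1 window each and the 2 exceptions had several, so 7 of the 12 windows searched held a core. Either core was in 38.6% of the 32851 windows of 250 bases in the RefSeq table, and in 63.8% of those with at least 60% G and C. Most of the 12 windows had at least 60% G and C. Some of them were shortened, and the shares are per window of 250 bases, so the count per gene cannot be set against them. The windows of these genes ran from 44.0% G and C for Esm1 to 73.2% for Igfbp3. Searched in the same way on both strands, the TATA box letters TATAAA were in the Cxcr4 and Fscn1 windows (12.4% of all windows). CCGGAA, a core bound by ETS factors, was in those of Igfbp3 and Unc5b (3952 of all 32851 windows). TGGGAA, a core bound by the Notch effector RBPJ, was at an alternative start of Kcne3 and of Mest (21.6%). No motif contains another, and a match in letters does not show that a factor binds there.

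Cxcr4 encodes the receptor for the chemokine Cxcl12 and is found on tip cells as well as on leukocytes and neurons. The gene lies on the minus strand of chromosome 1 at 128588199 to 128592293. Its values were 92.3, 99.2 and 138 normalised reads in Emcn+/+ and 109, 141 and 134 in Emcn-/-. The 2 Emcn+/+ libraries titled 14 were lowest, and the genotypes overlapped because Emcn+/+ replicate 3 lay among the Emcn-/- libraries. The log2 difference was 0.23 ± 0.19 (limma adjusted p = 0.752), and 0.41 ± 0.17 without that library (0.257). Cxcl12 itself was at 234 to 295 in Emcn+/+ and 219 to 290.2 in Emcn-/- (-0.02 ± 0.14). Ackr3, a receptor that binds and removes Cxcl12, was at 49.8, 38 and 85.2 in Emcn+/+ and 92.5, 90.2 and 128 in Emcn-/-. Its genotypes did not overlap and its log2 difference was 0.89 ± 0.29 (limma adjusted p = 0.518). Without Emcn+/+ replicate 3 it was 1.21 ± 0.23 with a limma adjusted p of 0.0485.

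Since leukocytes also carry Cxcr4, their markers are set beside it. Of 10 T cell and neutrophil markers, 6 were in the table and 2 had enough reads to be tested. The list summed to 37.3 to 59.0 normalised reads in Emcn+/+ and 34.1 to 44.4 in Emcn-/-, most of it from Csf3r (23.4 to 41.5). Cd2, S100a8, S100a9 and Mpo were each listed at 0 in 3 or 4 of the 6 libraries and never exceeded 3.28. The 14 microglia and macrophage markers, all tested, summed to 1969 to 3124 in Emcn+/+ and 2128 to 2492 in Emcn-/-, with Emcn+/+ replicate 3 highest, a library in which Cxcr4 was also high. Of these 14 markers, 4 had positive and 10 negative differences, with a median of -0.06, and their part in the Cxcr4 values was not tested.

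Unc5b encodes a netrin receptor through which guidance cues restrain tip cell filopodia. It lies on the minus strand of chromosome 10 at 60762593 to 60831581. It stood at 368, 396 and 500.2 normalised reads in Emcn+/+ and 499.5, 438 and 472 in Emcn-/-. Emcn+/+ replicate 3 was again as high as the highest Emcn-/- library. The log2 difference was 0.17 ± 0.12 (limma adjusted p = 0.721) and 0.30 ± 0.09 without that library (0.146). Its ligand gene Ntn1 had 9.33 to 24.0 normalised reads in Emcn+/+ and 13.5 to 20.4 in Emcn-/-, and Ntn4 and the ligand genes Flrt2 and Flrt3 had log2 differences of 0.11 ± 0.10, 0.03 ± 0.12 and -0.08 ± 0.10. Among the other netrin receptors, Unc5c ran from 586 to 686 in Emcn+/+ and from 561 to 579 in Emcn-/- without overlap (-0.14 ± 0.08, limma adjusted p = 0.661), and 6.94% of all genes lay below in the same way.

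Rgcc, a regulator of the cell cycle that endothelial cells induce under hypoxia, lies on the minus strand of chromosome 14 at 79288756 to 79301645. Its values were 85.0, 76.9 and 106 normalised reads in Emcn+/+ and 104, 100.6 and 117 in Emcn-/-. Emcn+/+ replicate 3 exceeded 2 of the Emcn-/- libraries, and the other two Emcn+/+ libraries lay below all of them. The means were 89.3 ± 15.0 and 107 ± 8.82 (SD, n = 3 each), with a log2 difference of 0.27 ± 0.17 (limma adjusted p = 0.693). Without Emcn+/+ replicate 3 the difference was 0.40 ± 0.17 (limma adjusted p = 0.264).

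Fscn1 encodes fascin, which bundles actin in filopodia and is abundant in neurons. The gene lies on the plus strand of chromosome 5 at 142960343 to 142973185. It had 2722, 2768 and 2920.2 normalised reads in Emcn+/+ and 3085, 2779 and 2814 in Emcn-/-. It varied least of the 10, with a coefficient of variation of 3.69% in Emcn+/+ and 5.78% in Emcn-/-, and its log2 difference was 0.04 ± 0.06. Its photoreceptor relative Fscn2 was at 1853 to 2055 in Emcn+/+ and 1682 to 2068 in Emcn-/- (-0.03 ± 0.08).

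Pdgfb encodes the growth factor with which tip cells attract pericytes, and lies on the minus strand of chromosome 15 at 79995874 to 80014977. It had 172, 206 and 214 normalised reads in Emcn+/+ and 214, 155 and 202 in Emcn-/-. The lowest value was that of Emcn-/- replicate 2, the library with the least core endothelial signal, and the other two Emcn-/- libraries lay close to the upper Emcn+/+ values. The log2 difference was -0.06 ± 0.15 (limma adjusted p = 0.934), and it was 0.08 ± 0.14 without Emcn-/- replicate 2. The receptor gene Pdgfrb showed the same low library, with 277 in Emcn-/- replicate 2 against 337 to 399 elsewhere (-0.04 ± 0.13), and Pdgfra, the receptor of astrocytes, was at -0.23 ± 0.14. The other ligand genes Pdgfa, Pdgfc and Pdgfd had log2 differences of -0.09, 0.12 and 0.18.

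Igfbp3 encodes a secreted protein that binds insulin-like growth factors. It lies on the minus strand of chromosome 11 at 7206086 to 7213923. Its values, 193, 301 and 495 normalised reads in Emcn+/+ and 303, 278 and 459 in Emcn-/-, spread widely within each genotype. The 2 highest libraries were the replicate 3 of each genotype. The log2 difference was 0.14 ± 0.31 (limma adjusted p = 0.922) and its sign depended on the library left out, with -0.19 without Emcn+/+ replicate 1 and 0.49 without Emcn+/+ replicate 3. Within its family, Igfbp4 ran from 754 to 812 in Emcn+/+ and from 932 to 987 in Emcn-/- (0.30 ± 0.06, limma adjusted p = 0.374). Igfbp5 ran from 1615 to 2035 and from 2208 to 2391 (0.28 ± 0.09, limma adjusted p = 0.499). Neither overlapped between genotypes. The receptor gene Igf1r was at 3089.5, 3155 and 3218 in Emcn+/+ and 2829.5, 2714 and 2803 in Emcn-/-, also without overlap (-0.18 ± 0.05, limma adjusted p = 0.424). Igf1 and Igf2 were at 0.06 ± 0.10 and -0.21 ± 0.19.

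Kcne3, an accessory subunit of potassium channels, was the faintest of the 10, with 8 to 18 reads per library. It lies on the plus strand of chromosome 7 at 100176502 to 100184869. The values were 8.30, 11.1 and 18.6 normalised reads in Emcn+/+ and 11.7, 10.4 and 16.6 in Emcn-/- (log2 difference 0.07 ± 0.39, limma adjusted p = 0.972). Its SE was the largest of the 10.

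Trp53i11, named for its induction by the tumour suppressor p53, lies on the plus strand of chromosome 2 at 93187548 to 93201759. It had 373, 384 and 561 normalised reads in Emcn+/+ and 393, 386 and 516 in Emcn-/-. The 4 libraries titled 14 lay within 373 to 393 whatever their genotype. The log2 difference between genotypes was -0.01 ± 0.17 (limma adjusted p = 0.987).

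Mest, an imprinted gene expressed from the paternal allele, lies on the plus strand of chromosome 6 at 30723547 to 30748465. It had 1611, 1667 and 2031 normalised reads in Emcn+/+ and 1747, 1652 and 2094 in Emcn-/-. Again the pair titled 18 was highest in both genotypes, and the log2 difference was 0.05 ± 0.11 (limma adjusted p = 0.923). Its neighbour Copg2, which overlaps it and whose reads cannot be told from those of Mest where they overlap if strand was not kept, was at -0.06 ± 0.07.

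**Figure D2:**
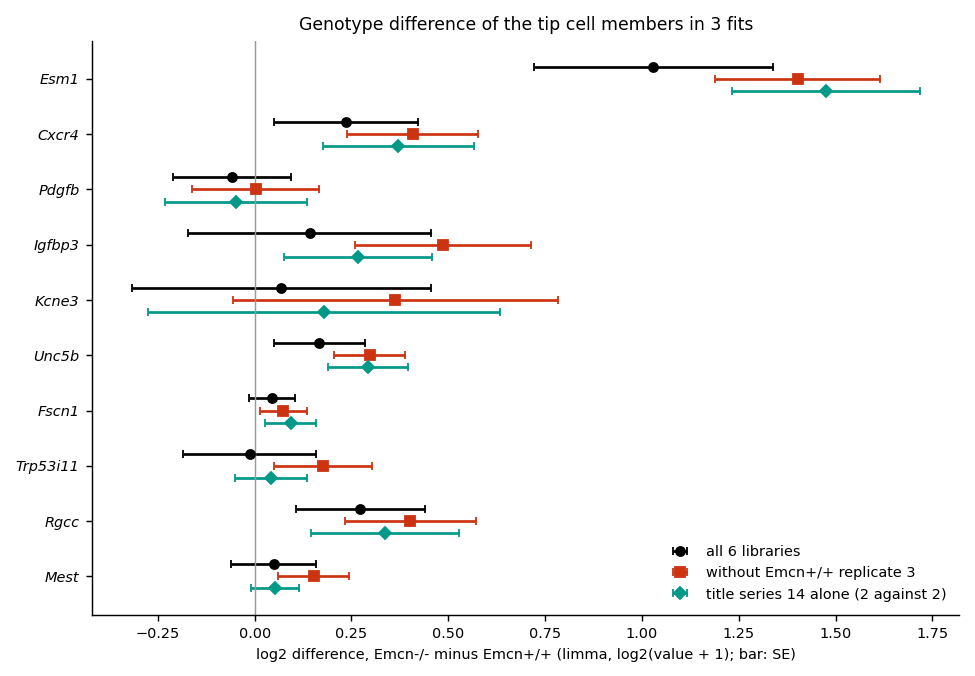
Log2 difference between genotypes (horizontal axis, Emcn-/- minus Emcn+/+, with SE) of each tip cell gene with all 6 libraries (black), without Emcn+/+ replicate 3 (red) and among the 4 libraries titled 14 (green). Esm1 stands at 1.03, 1.40 and 1.47, and the other 9 genes lie between -0.06 and 0.49.

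The tip cell genes were also compared between title series. In 5 of the 10, Igfbp3, Kcne3, Trp53i11, Rgcc and Mest, both libraries titled 18 lay above all 4 titled 14, whereas 12.8% of all genes did so. With genotype in the limma model, the difference between series was positive for all 10, with a median of 0.31 against 0.0041 over all genes. Without Emcn+/+ replicate 3, 1 of the 2 libraries titled 18, Esm1 (-0.22) and Fscn1 (-0.06) were negative and Unc5b was at 0.0142 in place of 0.20. With all libraries the difference between series was 0.49 ± 0.08 for Trp53i11 (limma adjusted p = 0.0379) and 0.31 ± 0.05 for Mest (limma adjusted p = 0.0385). Thus 2 of 10 passed where 0.767% of all genes did. Igfbp3 had the largest value of the 10, 0.85 ± 0.17, and did not pass (limma adjusted p = 0.0535). This contrast was added after the values had been seen. It rests on 2 libraries titled 18, and the calls moved with single libraries. Trp53i11 passed in 3 of 6 fits that left out 1 library and Mest in 0 of 6, with adjusted p from 0.0367 to 0.610 and from 0.0511 to 0.584. Igfbp3 passed in 1 of 6, without Emcn+/+ replicate 1 (limma adjusted p = 0.0141). These fits called from 0.00582% (without Emcn+/+ replicate 3) to 2.38% (without Emcn-/- replicate 3) of all genes. Without Emcn+/+ replicate 3 the values were 0.40 for Trp53i11, 0.30 for Mest and 0.66 for Igfbp3.

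Marker lists were compared between the title series in the same fit. Over all 16681 genes, 8507 were positive and 128 passed (0.767%). Emcn+/+ replicate 3, which is in series 18, is also the 1 female-type library. Left without Emcn+/+ replicate 2 the fit called 2 of all genes, and without Emcn-/- replicate 1 it called 6. Most of the calls named below therefore do not hold with Emcn+/+ replicate 2 left out. All 18 core endothelial genes were higher in series 18 with genotype in the model (median 0.36, 0 passing), as were 13 of 14 microglia and macrophage genes (0.33, with C1qb and C1qc passing) and 11 of 12 cycling cell genes (0.49, 0 passing). Of 6 astrocyte genes 4 were positive and Gfap passed, at 1.36 ± 0.11 (limma adjusted p = 0.00821). Hypoxia response genes were positive in 16 of 18 (median 0.14), with Egln3 passing at 1.02 ± 0.19. The lists of retinal neurons differed. Ganglion cell genes were positive in 0 of 10 (-0.17, 0 passing). Amacrine and horizontal cell genes were positive in 2 of 10 (-0.27, with Prox1 passing at -0.38 ± 0.07). Rod genes were positive in 4 of 10 (-0.0018, 0 passing) and cone genes in 6 of 8 (0.07, 0 passing). Bipolar cell genes were positive in 3 of 9 (-0.03, with Grm6 passing at -0.33 ± 0.06). Of 10 Müller glial genes 4 were positive (-0.08), and Vim (0.69 ± 0.10) and Glul (-0.44 ± 0.07) passed in opposite directions. The part of these markers in the values of the tip cell genes was not tested.

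**Figure D3:**
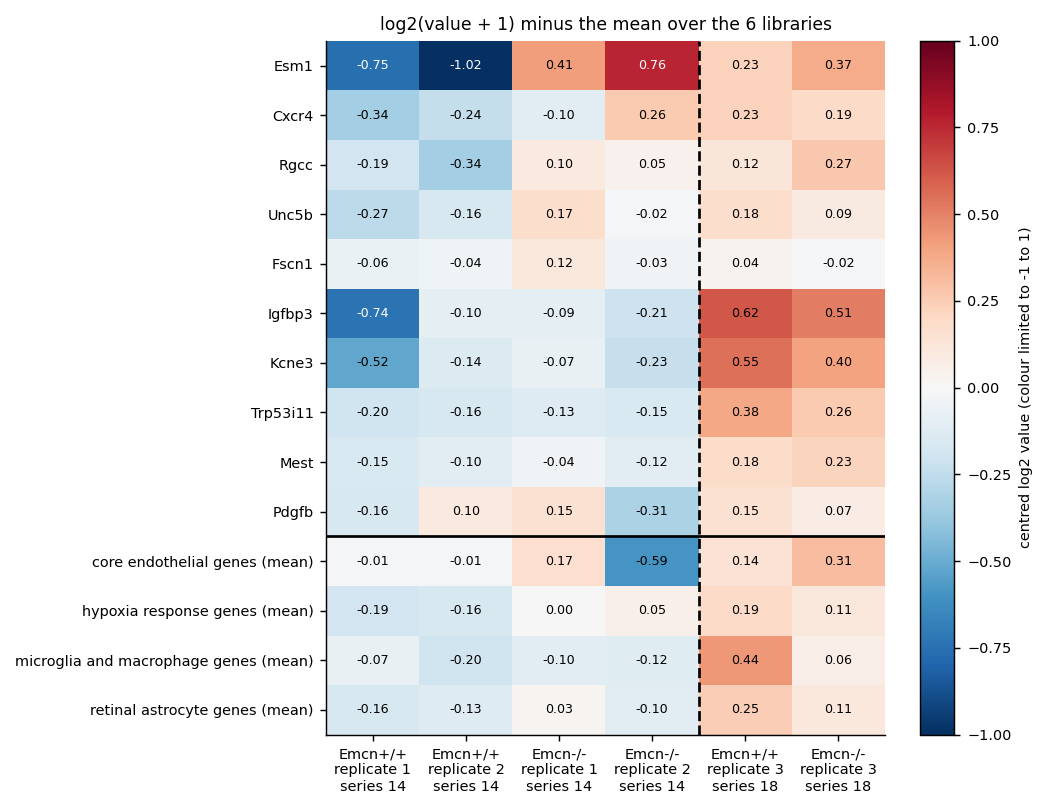
Log2(value + 1) of each tip cell gene minus its mean over the 6 libraries (colour and printed value), with the mean of 4 marker lists below the line; the dashed line separates libraries titled 14 from those titled 18. Igfbp3, Kcne3, Trp53i11 and Mest are positive only to the right of the dashed line among these libraries, and the core endothelial mean is lowest, at -0.59, in Emcn-/- replicate 2, where Esm1 is highest of the 6.

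Whole retina was sequenced, so fewer endothelial cells and less RNA per endothelial cell cannot be told apart. Each gene was also set against the mean log2 value of the 18 core endothelial genes in the same library, which does not separate these either. That mean was 7.24, 7.24 and 7.39 in Emcn+/+ and 7.42, 6.66 and 7.56 in Emcn-/-. The low mean of Emcn-/- replicate 2 raises any gene in that library on this scale. On this log2 scale Esm1 stood at -1.83, -2.10 and -1.001 in Emcn+/+ and -0.84, 0.26 and -1.03 in Emcn-/-. The genotypes then overlapped narrowly, Emcn+/+ replicate 3 lying between Emcn-/- replicates 1 and 3. The mean difference of Esm1 on this scale was 1.11, and it was 0.71 without Emcn-/- replicate 2. For the other 9 genes the mean differences ran from 0.02 for Pdgfb to 0.35 for Rgcc with all libraries, and from -0.14 to 0.12 without Emcn-/- replicate 2. All 10 overlapped between genotypes on this scale.

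**Figure D4:**
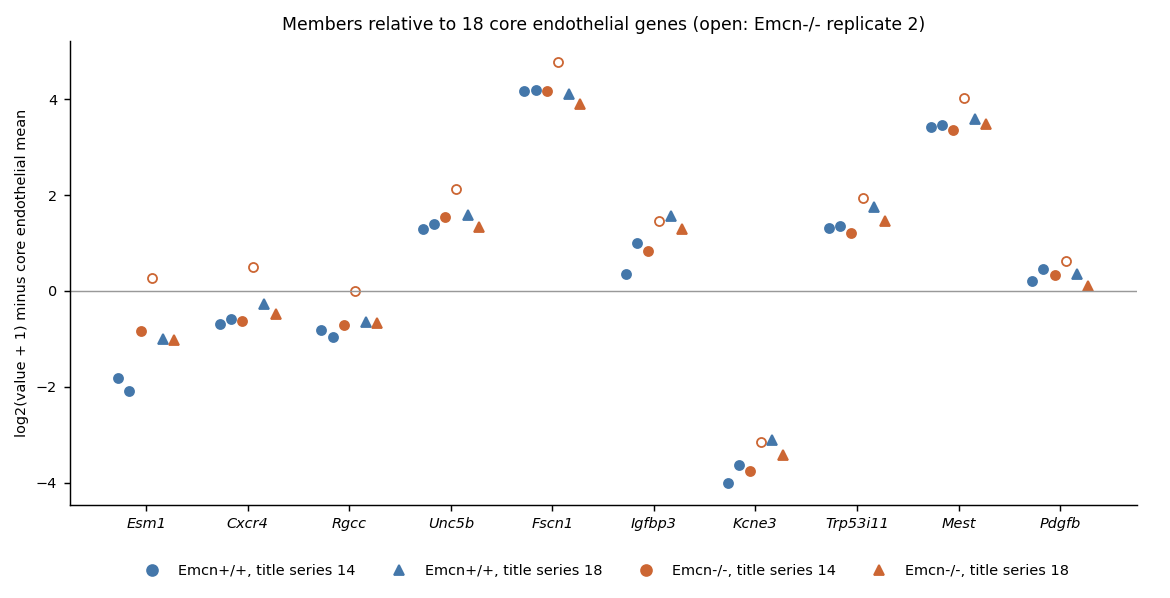
Log2(value + 1) of each tip cell gene minus the mean of 18 core endothelial genes in the same library (vertical axis), coloured by genotype, with triangles for titles beginning with 18 and an open symbol for Emcn-/- replicate 2. The open symbol is the highest of the 6 for 8 of the genes shown. The mean subtracted is lowest in that library (6.66), which raises every gene there on this scale. For Esm1 the open symbol stands at 0.26 against -2.10 to -0.84 in the other libraries.

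Levels can be compared between genes only per length of exon. In Emcn+/+ retinas Fscn1 stood at 931 ± 34.4 normalised reads per kilobase of exon and Mest at 449 ± 57.8. Trp53i11 (119 ± 28.6), Igfbp3 (105 ± 48.8) and Rgcc (97.3 ± 16.3) followed, and these did not differ beyond their spread. Unc5b (67.3 ± 11.1), Cxcr4 (60.7 ± 13.5) and Pdgfb (47.4 ± 5.33) came next, with Unc5b and Pdgfb both inside the spread of Cxcr4. Esm1 (25.2 ± 12.5) and Kcne3 (7.12 ± 2.98) were lowest. In Emcn-/- retinas Esm1 reached 48.7 ± 7.56, beside Pdgfb at 45.8 ± 7.59, and Rgcc at 117 ± 9.61 stood level with Trp53i11 (117 ± 19.7) and above Igfbp3 (111 ± 31.4), all within their spread. Esm1 and Pdgfb changed places in the order, and Fscn1, Mest, Unc5b, Cxcr4 and Kcne3 kept theirs. The 18 core endothelial genes, for scale, had a median of 42.9 per kilobase in Emcn+/+, from 4.28 for Tal1 to 532 for Cldn5. Fscn1 was above every core endothelial gene and Mest above all of them but Cldn5. Which retinal cells the reads of either came from was not tested.

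A list of 23 other tip cell genes was examined beside the 10, with growth factor, angiopoietin and apelin genes among them. Of the 23, all tested, 10 had positive and 13 negative differences (median -0.01), and 0 passed with limma. Apln, a peptide secreted by tip cells, had 523, 634 and 787 normalised reads in Emcn+/+ and 1062, 1183 and 898 in Emcn-/-, and it was the 1 gene of this list that passed with DESeq2 (adjusted p = 0.00134). Angpt2 and the basement membrane gene Nid2 also lay above without overlap, Nid2 at 236 to 375 in Emcn+/+ and 384 to 437 in Emcn-/- (0.41 ± 0.16, limma adjusted p = 0.560). Its relative Nid1 went the other way, at 1221, 554 and 739 in Emcn+/+ and 497, 331 and 670.0 in Emcn-/- (-0.73 ± 0.31, limma adjusted p = 0.599). Kdr, the growth factor receptor, was below without overlap (-0.26 ± 0.08, limma adjusted p = 0.499). Thus 3 of the 23 lay above and 1 below without overlap, where 7.48% and 6.94% of all genes did. Without Emcn+/+ replicate 3, Apln, Angpt2 and Adm passed as Esm1 did, at 0.85 ± 0.12, 0.85 ± 0.12 and 1.07 ± 0.17. That fit called 0.855% of all genes, and the list median was 0.05. With all libraries Adm overlapped between genotypes, at 0.50 ± 0.41 (limma adjusted p = 0.759). Its highest value, 181, was that of Emcn+/+ replicate 3.

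**Figure D5:**
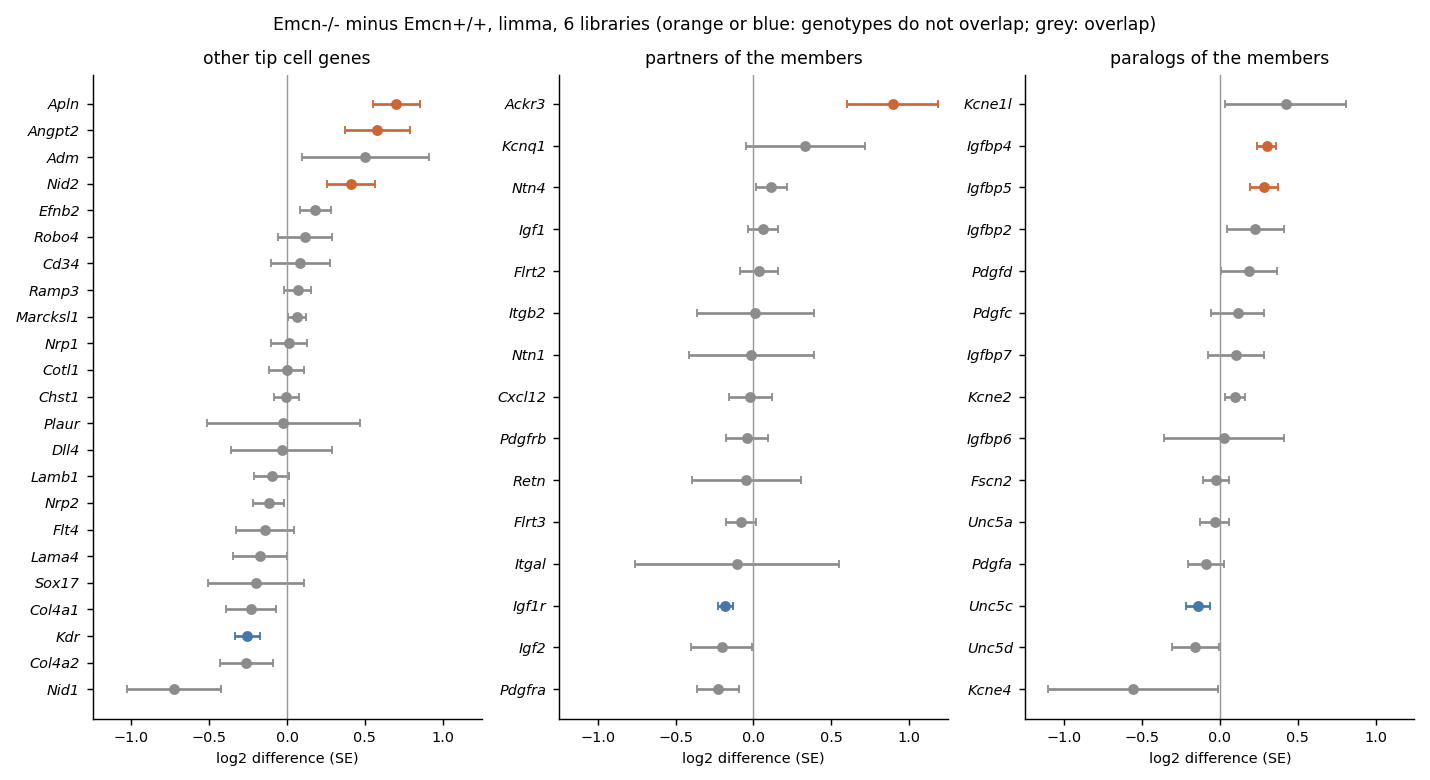
Log2 difference between genotypes (horizontal axes, Emcn-/- minus Emcn+/+, with SE) of 23 other tip cell genes, 15 ligands and receptors that act with the tip cell genes, and 15 tested paralogs of them; orange genes lie above and blue ones below without overlap of the genotypes. Apln (0.70), Angpt2 (0.58), Nid2 (0.41), Ackr3 (0.89), Igfbp4 (0.30) and Igfbp5 (0.28) are orange, and Kdr, Igf1r and Unc5c are blue.

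Stalk cell genes, which tip cells hold in check or induce through Notch, were listed for contrast. Of 14, all tested, 7 were positive and 7 negative, with a median of 0.02 and 0 passing. Notch1 ran from 616 to 825 normalised reads in Emcn+/+ and from 444 to 599.8 in Emcn-/- without overlap (-0.50 ± 0.14, limma adjusted p = 0.473), and Id1, a target of bone morphogenetic protein signalling, was at 0.30 ± 0.12 (0.561). The Notch target Hey2 was at 0.16 ± 0.10, without overlap. Thus 1 of the 14 lay above and 1 below in this way, where 7.48% and 6.94% of all genes did. Of the 18 core endothelial genes 7 were positive and 11 negative (median -0.02, 0 without overlap), with Tek (-0.56 ± 0.37) and Myct1 (-0.34 ± 0.25) at the smallest p. Without Emcn-/- replicate 2 the core median was 0.20, with 16 of 18 positive.

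Hypoxia response genes lie upstream and beside this programme, since hypoxia drives the growth factors that induce tip cells. Of 20 listed, 19 were in the table and 18 tested, 12 with positive differences (median 0.14), with Slc2a1 (0.24 ± 0.06, limma adjusted p = 0.400) and Bnip3 (0.31 ± 0.11, 0.522) at the smallest p. Their mean centred log2 value was -0.19, -0.16 and 0.19 in Emcn+/+ and 0.0020, 0.05 and 0.11 in Emcn-/-. It was highest in Emcn+/+ replicate 3, the Emcn+/+ library with the most Esm1 reads, and its part in the Esm1 values was not tested.

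Over the 6 libraries the genes whose log2 values ran most like those of Esm1, among 12267 with a mean of at least 50 normalised reads, were Vdac1 (Pearson r = 0.9965), Mif (0.9899), Grhpr (0.9886), Mrpl2 (0.9869) and Gtpbp1 (0.9862). Vdac1 is a channel of the outer mitochondrial membrane, Mif a cytokine, Grhpr a metabolic enzyme, Mrpl2 a mitochondrial ribosomal protein and Gtpbp1 a GTP-binding protein. Vdac1 had 7727, 7509 and 8337 normalised reads in Emcn+/+ and 8543, 8834 and 8575 in Emcn-/-, over a much narrower range than Esm1 (log2 difference 0.14 ± 0.06). Its libraries ran in the order of Esm1 except that Emcn-/- replicates 1 and 3 changed places. All 5 had log2 differences from 0.05 to 0.23, none of which passed with limma, and these likenesses are given as a description with no test.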

How the data were processed

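Poly-A RNA-seq libraries of 6 retina samples were made from 1.3 µg of RNA each, per the labels. The authors' deposited values are a signal: reads of each gene scaled by 1 factor per library. Dividing a library's values by its smallest step gave whole reads for 100% of them, to within 0.001 of a read. The build was GRCm38, per the submitters' processing notes, and no aligner, counter or scaling method is named in the labels; whether strand was kept is not known. All value columns were used. Of 28627 gene IDs, 27390 had positions and exonic lengths in GENCODE M21. A symbol shared by several IDs went to the ID with the highest mean.

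Genotype was the only term of the main model, fitted to log2(value + 1) by limma 3.58.1 in R 4.3.3 with its trend option, 2-sided, and adjusted by Benjamini-Hochberg over 16681 genes kept by edgeR's filter (minimum count 10). Log2 differences are on that scale and understate changes of low genes. Recovered reads were also tested with edgeR 4.0.16 and with DESeq2 1.42.0. In 1 simulated data set of this comparison (16681 genes, 200 changed) the share of changed genes called was 43.3% at 1.5-fold, 65.7% at 2-fold and 84.8% at 4-fold. In it 4 unchanged genes were called. Each gene was drawn independently, so differences between libraries that move many genes together were left out, and these shares may not hold for the real libraries.

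The 10 genes and the 21 lists (242 of 252 symbols found) were chosen with earlier results of these data known. Named by rule were the 10, the 2 genes of smallest p in each list (1 list is not reported here), the genes without overlap among other tip cell genes, partners and paralogs, and the 5 genes with the highest Pearson r to Esm1 (mean of at least 50, standard symbol). Other genes named, such as Nid1, Adm, Hey2, Gfap and the direct ligands and receptors, were chosen after their values were seen. Alternatives covered pseudocount, filter, scaling, model, each library left out, sex and title series; title series 14 alone, the series contrast and the interaction were added after seeing the data.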

Additional observations from a re-analysis of the deposited data

How the results depend on the processing

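Esm1 kept a positive difference in all 16 alternatives, from 0.78 to 1.40 on the log2 scale when each library was left out and 1.47 among libraries titled 14. It passed an adjusted p of 0.05 in 2 of them, without Emcn+/+ replicate 3 (1.40) and with sex as a term (1.40), which are nearly the same fit because that library is the 1 female-type library. The number of genes called, 1 with all libraries, was 71 with DESeq2 (22 higher, 49 lower), 153 with sex as a term, 36 among libraries titled 14, and 0 to 147 when each library was left out; the cause was not tested. Cxcr4, Unc5b and Rgcc stayed positive and did not pass in any of the 16. Signs changed for Pdgfb (0.0025) and Trp53i11 (0.18) with sex as a term and for Trp53i11 among libraries titled 14 (0.0416). Leaving out 1 library gave -0.19 to 0.49 for Igfbp3, -0.17 to 0.36 for Kcne3, -0.0512 to 0.15 for Mest, -0.0031 to 0.0738 for Fscn1, -0.15 to 0.0834 for Pdgfb and -0.15 to 0.18 for Trp53i11. The median of the 10 tip cell genes ran from 0.0042 to 0.33 and that of the 23 other ones from -0.07 to 0.08. Both moved by less than the spread between libraries. That spread was wider than the medians themselves, so this does not show that they were stable. For the 10, the mean centred log2 value ran from -0.34 to 0.27 within Emcn+/+, beside a median difference of 0.11. With title series as a term Esm1 had an adjusted p of 0.208 with limma. No paired analysis was possible because replicates were numbered by accession order, which links no sample of one genotype to a sample of the other.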

Other observations

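Lists of other retinal cells and neighbouring tissues, which could add reads to any of the 10 genes, were measured in the same fit, and 0 of their genes passed with limma, although DESeq2 called 1 pericyte, 1 Müller glial and 2 ciliary body genes. The 2 genes named for each list are those of smallest p, with their log2 differences. All 11 tested retinal pigment epithelium genes had positive differences between genotypes, with a median of 0.83 (Dct 1.11, Ttr 0.92), where 52% of all genes were positive. All 6 ciliary body and iris genes were positive, with a median of 0.57 (Col9a1 0.54, Col9a2 0.60), as were all 10 rod genes, with a median of 0.07 (Gngt1 0.17, Cnga1 0.13). Müller glial genes were positive in 7 of 10, with a median of 0.17 (Apoe 0.37, Abca8a -0.25), and cone genes in 6 of 8, with a median of 0.13 (Arr3 0.31, Pde6h 0.67). Retinal ganglion cell genes were positive in 6 of 10, with a median of 0.07 (Sncg 0.16, Pou4f2 -0.19), and astrocyte genes in 3 of 6, with a median of -0.0028 (S100b 0.28, Pdgfra -0.23). Amacrine and horizontal cell genes were positive in 2 of 10, with a median of -0.10 (Onecut2 -0.54, Onecut1 -0.44), and bipolar cell genes in 3 of 9, with a median of -0.02 (Pcp2 0.26, Prkca -0.19). Pericyte and smooth muscle genes were positive in 4 of 11, with a median of -0.13, although Acta2 (1.04) and Myh11 (1.14) were positive. Cycling cell genes were positive in 6 of 12, with a median of -0.02 (Plk1 0.40, Ccna2 -0.24). Among microglia and macrophage genes the smallest p values were those of Aif1 (-0.57) and Tyrobp (-0.42).

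The pigment epithelium list summed to 3786 to 7906 normalised reads in Emcn+/+ and 8907 to 12416 in Emcn-/-, without overlap. Taken singly, 5 of the 11 tested genes lay above without overlap, as did Esm1 and 7.48% of all genes. By the mean centred log2 value of the list the genotypes overlapped. Emcn+/+ replicate 1 (0.077) stood above Emcn-/- replicate 1 (0.0564). Among Emcn+/+ libraries the list sum was largest in replicate 1, whereas Esm1 was highest in replicate 3. The part of this list in the Esm1 values was not tested.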
